A study of Mus musculus with 2 samples.

Results

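Follicular B cells are the recirculating, mostly resting B cells of secondary lymphoid organs, and here they were followed in the gums of mice, among the infiltrating immune cells, in a study of experimental periodontitis. They were chosen by their transcripts. Barcodes were kept if they held 200 genes or more and if mitochondrial transcripts were no more than 15% of their UMIs (unique molecular identifiers, each counting 1 captured transcript). A follicular B cell further had at least 4 UMIs of the B cell genes Cd79a, Cd79b and Ms4a1 together and at least 2 UMIs of Ighd and Fcer2a together. It had at most 1 UMI of the T cell genes Cd3e, Cd3d, Cd3g and Trac, and under 2% of its UMIs came from the neutrophil genes S100a8 and S100a9. This gave 3498 follicular B cells of 19705 kept barcodes, 1287 of 12769 in the first library and 2211 of 6936 in the second.

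The series holds 2 single-cell libraries of gingiva infiltrating cells from C57BL/6 mice. The group WT is 1 library from wild-type animals, and the group Otud1-/- is 1 library from animals labelled as lacking Otud1, which encodes an ovarian tumour family deubiquitinase. Not given in the sources used here are the number of animals in each library, their age and sex, how disease was induced and whether in both genotypes, and which part of Otud1 is deleted in which cells. With 1 library per genotype no test between genotypes was possible, no p-value is given, and all 95% intervals cover counting error only.

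A naive B cell makes 1 long transcript across the adjacent immunoglobulin heavy-chain constant genes Ighm and Ighd and processes it into IgM and IgD. The zinc finger protein encoded by Zfp318 is needed for the Ighd form. Fcer2a encodes CD23, the low-affinity receptor for IgE, which is high on follicular B cells and low on marginal zone, germinal centre and plasma cells. Resting follicular B cells find their place in lymph nodes with the chemokine receptors CCR7 and CXCR5, leave along sphingosine 1-phosphate with S1PR1, and are kept in this state in part by the transcription factor KLF2. On the mouse genome (mm10), Ighd (ENSMUSG00000104213.5) lies on the minus strand of chromosome 12 from 113406604 to 113416324, next to Ighm (113418558 to 113422730). Fcer2a (ENSMUSG00000005540.10) lies on the minus strand of chromosome 8 from 3681737 to 3694175.

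Among the genes that were higher in follicular than in other B cells, described below, Zfp318 and Cd55 are shown with the genomic sequence just before their start, because both stood near the top in both libraries. KLF factors bind CACCC boxes, so the letters CACCC and, for the other strand, GGGTG are in capitals where a search found them. The sequences are from RefSeq (GRCm38.p6), written 5′ to 3′ on the gene's own strand. Zfp318 is on the plus strand (chr17:46383516-46383730) and Cd55 on the minus strand (chr1:130462745-130462994).
Zfp318: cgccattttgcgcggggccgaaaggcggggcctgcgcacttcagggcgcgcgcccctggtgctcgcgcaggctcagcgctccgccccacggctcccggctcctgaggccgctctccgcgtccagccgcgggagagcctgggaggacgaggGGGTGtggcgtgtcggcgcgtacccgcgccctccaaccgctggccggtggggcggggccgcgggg
Cd55: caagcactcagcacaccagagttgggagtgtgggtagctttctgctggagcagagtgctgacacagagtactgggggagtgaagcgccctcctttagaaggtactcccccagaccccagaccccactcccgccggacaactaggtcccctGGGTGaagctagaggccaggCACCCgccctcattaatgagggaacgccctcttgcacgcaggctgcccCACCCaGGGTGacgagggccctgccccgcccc
The Cd55 stretch of 250 bases holds 4 matches and the Zfp318 stretch of 215 bases holds 1. Of 27025 such windows, 1 per gene, 51.3% held at least 1 match and 2.12% held 4 or more. Of the 12 named genes higher in follicular B cells, 7 had an entry and 5 of these held a match, against 3 of the 6 with an entry among the named lower genes. A match describes letters only and shows no binding.

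The WT library held 13267 barcodes and 44878537 UMIs, and the library labelled Otud1-/- held 8109 and 44083735. Follicular B cells had a median of 3746 UMIs and 1384 genes in WT and 4134 UMIs and 1440 genes in the other library. Otud1 itself went against the label: follicular B cells held 135 Otud1 UMIs (22.9 CPM, counts scaled to 1000000 summed UMIs) in WT and 503 UMIs (42.0 CPM) in the library labelled Otud1-/-, a log2 ratio of 0.86. Otud1 was also higher in that library in B cells with no UMI of Ighd or Fcer2a, at 20.4 CPM in WT and 40.6 CPM. T cells were at 16.2 CPM in WT and 36.7 CPM in the other library. Plasma cells went the other way, at 11.1 and 9.57 CPM. The difference was thus not confined to follicular B cells. The assay tags 3′ ends, so a deletion elsewhere in the gene would not be seen, and whether this applies here was not tested. An exchange of the labels was not tested, and it would turn the direction of every difference between the libraries given here. Xist, which marks female cells, was found in 443 WT follicular B cells, Y-linked transcripts in 608 and both in 131, against 2, 1459 and 0 in the other library. The libraries share 37 barcodes, of which 1 is a follicular B cell in both.

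The defining B cell genes fitted the label, while some members also carried transcripts of other cell types. Pax5, which marks the B lineage, stood at 294 CPM in WT follicular B cells and at 239 CPM in the other library, against 13.7 CPM in WT T cells and 3.45 CPM in T cells of the other library. Of 14 further follicular B cell markers that the rule did not use, all 14 had a mean of at least 20 CPM. Most of them also reached 20 CPM in B cells with no UMI of Ighd or Fcer2a. This level alone therefore does not set the members apart from those cells, and the ratios to them are given below. The T cell genes Cd3e and Trac, limited by the rule, were at 3.90 and 5.94 CPM in WT and at 1.17 and 4.43 CPM in the other library. Lyz2, a lysozyme of macrophages and neutrophils, reached 831 and 1040 CPM, and Jchain, which joins secreted IgM and IgA, 503 and 709 CPM. Most of both came from 2 of 7 clusters within the follicular B cells, described below as clusters 3 and 5, which made up 246 of 1287 cells (19.1%) in WT and 204 of 2211 (9.23%) in the other library. Of their cells 25.6% had a doublet score among the highest, against 1.05% of the other members. In WT 26.0% of them held both Xist and Y-linked UMIs, against 6.44% of the other members. Cluster 3 alone was at 14.5% and cluster 5 at 31.2%, while cluster 6, counted among the other members, was at 27.1%. Results that rest on clusters 3 and 5 are given with and without them, apart from the ratios to other B cells.

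Follicular B cells took a larger share of the library labelled Otud1-/-. They were 10.1% of kept WT barcodes (95% interval 9.56 to 10.6, exact Clopper-Pearson) and 31.9% (30.8 to 33.0) of the other library, a difference of 21.8 points (20.6 to 23, Newcombe). Among B cells alone, meaning all barcodes that met the rule apart from its Ighd and Fcer2a part, they were 37.7% of 3414 cells (36.1 to 39.3) in WT and 67.4% of 3279 cells (65.8 to 69.0) in the other library, a difference of 29.7 points (27.4 to 32.0). The rule asks for a fixed number of UMIs and the libraries differ in depth, so every cell was also thinned to 1000 UMIs, which left out 1283 WT and 295 other kept barcodes. The thinned shares were 1.19% and 4.49% of kept barcodes, a difference of 3.29 points, and 11.4% and 20.1% of B cells, a difference of 8.72 points. Within cells that held Y-linked but no Xist UMIs the shares of kept barcodes were 16.7% and 32.8%. The share was higher in the library labelled Otud1-/- under every one of these settings, with 1 library on each side and the number of animals unknown.

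The rule's own genes describe the members and are not a result. Ighd stood at 617 CPM in WT and 644 CPM in the other library, and Fcer2a at 233 and 196 CPM. Both genes were found together in 669 WT members (52.0%) and 1172 members of the other library (53.0%), Ighd alone in 541 (42.0%) and 964 (43.6%), and Fcer2a alone in 77 (5.98%) and 75 (3.39%). Just inside the threshold, 440 WT members (34.2%) and 533 of the other library (24.1%) had exactly 2 UMIs of Ighd and Fcer2a, and just outside it 715 and 534 B cells had 1. The cells with Fcer2a alone differed from those with both genes in other transcripts. Klf2 stood at 349 CPM (295 to 409) in WT cells with Fcer2a alone against 831 CPM (800 to 863) with both genes, and at 417 CPM (363 to 477) against 756 CPM (735 to 777) in the other library. Ighm was lower with Fcer2a alone, at 616 against 1462 CPM and 918 against 1481 CPM.

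B cells were next ordered by their UMIs of Ighd and Fcer2a, from 0 to 5 or more, and other genes were read along that order. Zfp318 stood at 33.0, 72.6, 117, 122, 133 and 159 CPM along the 6 steps in WT. In the library labelled Otud1-/- it stood at 36.3, 94.98, 117, 120, 159 and 169 CPM. In both libraries most of this difference lay between 0 and 2 UMIs, and the cells just outside the rule lay between the other B cells and the members. Satb1, a chromatin organiser, went from 300.3 to 885 CPM in WT and from 282 to 811 CPM in the other library between the ends. The microtubule regulator gene Stmn1, high in dividing cells, went the other way, from 533 to 102 CPM and from 490.4 to 135 CPM. The fall was not steady in the library labelled Otud1-/-. Stmn1 stood there at 57.4 CPM (47.2 to 69.3) at 4 UMIs and at 135 CPM (125 to 145) at 5 or more. Mki67, a proliferation marker, likewise stood at 29.5 and then 73.3 CPM. Depth moved along the same order in WT, with median UMIs of 2762.5 at 0 and 4296 at 5 or more, while in the other library the cells at 0 had the highest median, 4891.5, and those at 5 or more had 4725.5. The part of depth in these levels was not tested apart from the depth window given below.

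**Figure D1:**
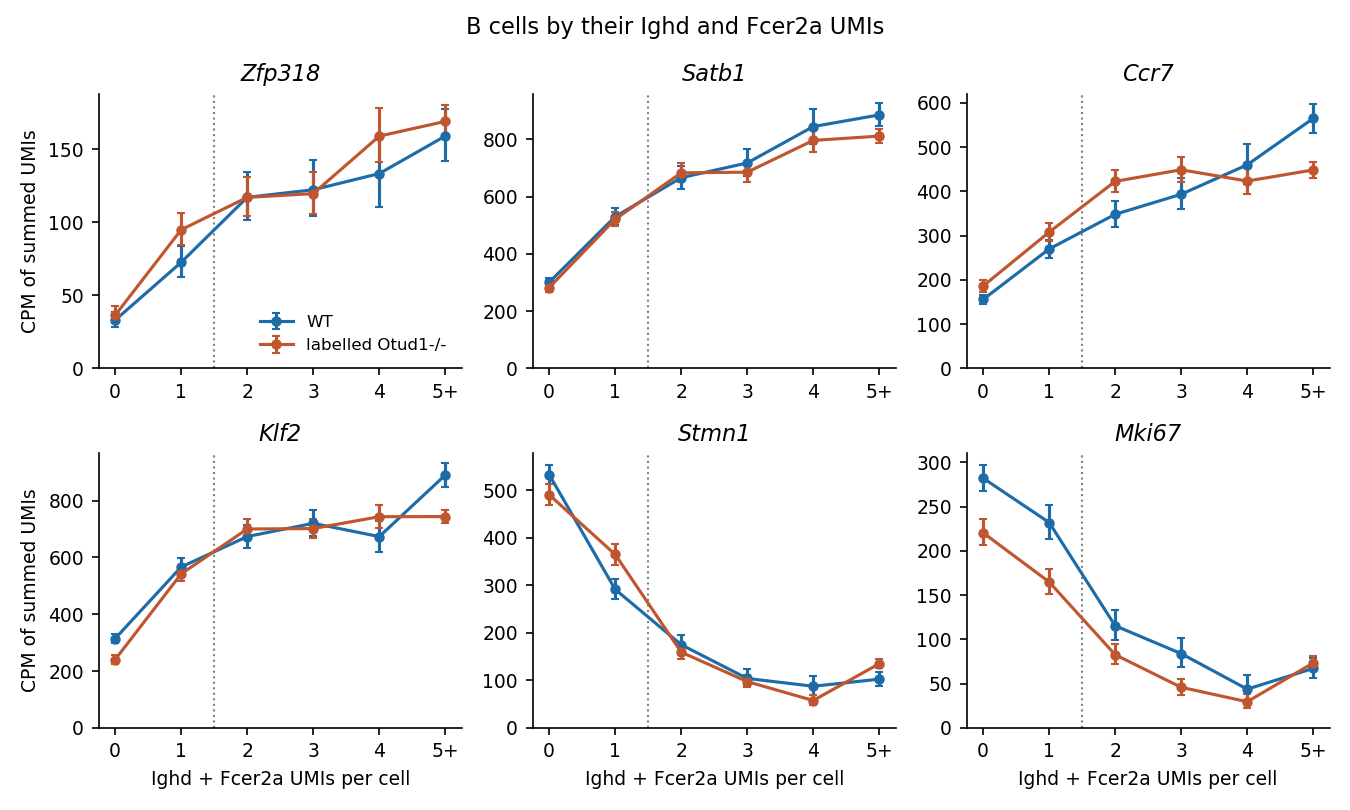
Levels of 6 genes in B cells grouped by their UMIs of Ighd and Fcer2a (x axis), as CPM of summed UMIs (y axis) with exact Poisson 95% intervals for counting error, in each library; the dotted line is the threshold of the rule. Zfp318, Satb1, Ccr7 and Klf2 stand higher to the right of the line than at 0 UMIs, and Stmn1 and Mki67 stand lower.

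Set against the B cells with no UMI of Ighd or Fcer2a (1412 in WT and 534 in the other library, called other B cells), the follicular B cells had more transcripts of further follicular markers and fewer of the cell cycle and the germinal centre, in both libraries. Fewer transcripts of antibody secretion were also found, but that direction turned when Jchain-rich cells were taken from the other B cells only. Of 2494 genes compared (a mean of at least 50 CPM and at least 100 UMIs in each library, without the genes of the rule), 175 (7.02%) were at least 1.5-fold higher in both libraries and 178 (7.14%) at least 1.5-fold lower in both. In single libraries the higher genes were 266 (10.7%) in WT and 278 (11.1%) in the other, and the lower genes 310 (12.4%) and 203 (8.14%). In 10 genes (0.401%) the libraries lay past 1.5-fold on opposite sides. These counts depend on which other B cells are used. Without the other B cells that held 5 or more Jchain UMIs, 26 genes were higher and 29 lower in both. Those cells were 10.8% of other B cells in WT and 25.1% in the other library. Members with 5 or more Jchain UMIs, 46 in WT and 59 in the other library, were kept in this setting. Among cells with 2000 to 6000 UMIs (945 follicular and 804 other in WT, 1609 and 271 in the other library) 16 were higher and 40 lower.

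Zfp318 led the higher genes. It stood at 135 CPM (126 to 145) in WT follicular B cells against 33.0 CPM in WT other B cells, and at 147 CPM (140.5 to 154) against 36.3 CPM in the library labelled Otud1-/-, log2 ratios of 2.02 (1.80 to 2.28) and 2.004 (1.77 to 2.27). Without the Jchain-rich other B cells the ratios were 1.66 and 1.13, and in the depth window 1.75 and 1.01, so Zfp318 was past 1.5-fold in both libraries each time. Klf2 stood at 758 against 314 CPM and at 726 against 240.5 CPM, log2 ratios of 1.27 and 1.59, and 1.04 and 0.67 in the depth window. S1pr1 stood at 141 against 58.1 CPM and 126 against 47.0 CPM, log2 ratios of 1.27 and 1.42. In the library labelled Otud1-/- the S1pr1 ratio was 0.58 without the Jchain-rich cells and 0.32 in the depth window, both under 1.5-fold. Klf2 and S1pr1 thus lay on the same side in both libraries, each by at least 1.27 on the log2 scale before the settings were changed.

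Further named higher genes were Cd55 (1.54 and 1.46), which shields cells from complement, B3gnt5 (1.59 and 1.45), a glycosyltransferase of lacto-series glycolipids, Satb1 (1.38 and 1.42), the lysophospholipid receptor gene P2ry10 (1.33 and 1.32), Dmxl1 (1.52 and 1.30), a partner of the vacuolar proton pump, Ccr7 (1.53 and 1.24), Vps37b (1.23 and 1.35), a subunit of an endosomal sorting complex, and Pgap1 (1.23 and 1.46), which acts on lipid-anchored proteins. The pairs are log2 ratios in WT and in the library labelled Otud1-/-. In the library labelled Otud1-/- the ratio of Ccr7 was 0.37 in both changed settings, and in the depth window those of Cd55 and Satb1 were 0.56 and 0.39, all under the threshold. Of the 12 named higher genes, 8 stayed past 1.5-fold in both libraries without the Jchain-rich cells and 6 in the depth window.

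The named lower genes belonged mostly to DNA replication and mitosis. Pclaf, which binds the replication clamp, stood at 80.2 against 429 CPM in WT and at 64.7 against 396 CPM in the other library, log2 ratios of -2.41 and -2.60. Stmn1, a microtubule regulator of dividing cells, stood at 121 against 533 CPM and at 121 against 490 CPM, log2 ratios of -2.13 and -2.02. Ube2c (-2.50 and -2.11), Birc5 (-2.51 and -2.08), Cdca8 (-1.997 and -1.90) and Cks1b (-2.06 and -1.85) act in mitosis, and Dut (-1.92 and -1.89) in nucleotide supply. The replication histones Hist1h2ap, Hist1h2ae, Hist1h2ab and Hist1h1b lay between -1.80 and -2.38 on the log2 scale in each library. Scimp, an adaptor of antigen-presenting cells, was the exception by function, at 26.1 against 92.5 CPM and 24.9 against 95.6 CPM. Of the 12, 7 stayed past 1.5-fold in both libraries without the Jchain-rich cells and 8 in the depth window. Within that window Hist1h2ap and Hist1h1b lay at 0.10 and 0.15 in the library labelled Otud1-/-, on the other side of 0.

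**Figure D2:**
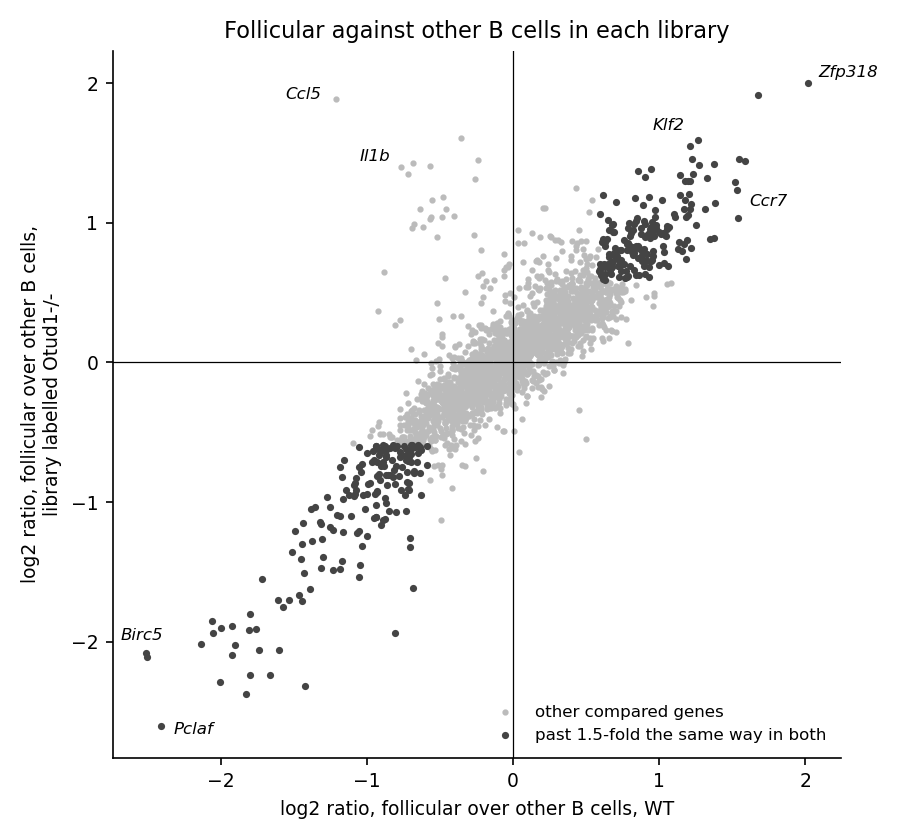
Log2 ratio of CPM in follicular over other B cells for each compared gene other than immunoglobulin genes and Jchain, in WT (x axis) and in the library labelled Otud1-/- (y axis); dark points are past 1.5-fold the same way in both. Zfp318 lies near 2 on both axes and Pclaf near the bottom left, while Il1b and Ccl5 are lower in WT and higher in the other library.

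Gene lists gave the same picture by counts, at a lower minimum of 20 CPM where 314 of 5029 genes (6.24%) were higher in both libraries and 345 (6.86%) lower, together 13.1%. Of 14 follicular markers outside the rule, 9 were higher and 0 lower, with median log2 ratios of 0.96 in WT and 1.08 in the other library against 0.04 and 0.10 over all genes. Among the 9 were Cd55, Ccr7, Fcmr, the receptor for IgM, Cd22, an inhibitory lectin of B cells, Klf2, S1pr1, Bank1, an adaptor of B cell receptor signalling, and Il4ra, a chain of the interleukin-4 receptor. Cr2, Cxcr5, Icosl and Btla were on the same side but under 1.5-fold in at least 1 library. Quiescence genes had 8 of 15 higher, among them Foxo1 (1.05 and 0.91), Foxp1 (1.03 and 0.92) and Btg1 (0.68 and 0.72). Cytokine and receptor genes of B cells had 9 of 15 higher, among them Il2rg (1.13 and 0.87) and Il6st (1.03 and 1.09). In the depth window these 3 lists had 2 of 14, 1 of 17 and 0 of 14 higher, and without the Jchain-rich cells 3 of 14, 1 of 16 and 1 of 16. Over all genes, 45 of 4833 were higher in both libraries in the depth window and 48 of 5056 without the Jchain-rich cells.

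Cell cycle genes had 19 of 19 lower in both libraries, led by Birc5 and Ube2c, and the proliferation marker Mki67 stood at 80.9 against 282 CPM in WT and 63.0 against 221 CPM in the other library. Germinal centre genes had 7 of 8 lower, with Bcl6, the master regulator of that state, the exception at -0.41 and -0.33. In the depth window 3 of 8 measured cell cycle genes and 3 of 3 measured germinal centre genes were lower, and without the Jchain-rich cells 3 of 14 and 7 of 7. Over all genes, 111 of 4833 were lower in both libraries in the window and 89 of 5056 without the Jchain-rich cells. Plasma cell markers had 4 of 5 lower, such as Mzb1, a chaperone of antibody secretion, at 258 against 746 CPM and 307 against 1002 CPM. In the depth window 4 of 5 were lower. Without the Jchain-rich other B cells 0 of 5 were lower and 1 was higher. Of the immunoglobulin constant genes 6 of 11 were lower and 0 higher at first. In this setting 6 of 9 were higher and 0 lower. Jchain-rich members were kept, so the setting itself favours higher values in members, and the turn cannot decide the direction. B cell receptor signalling genes had 2 of 28 higher and 0 lower, namely Bank1 and Malt1 (0.89 and 1.01), a scaffold and protease of that pathway, so most of that pathway was under 1.5-fold in at least 1 library.

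Clustering the follicular B cells alone gave 7 clusters (Leiden resolution 0.5). They were built from these same genes, so what follows describes them and tests nothing, and they are called by number. The leading genes of clusters 1 and 5 differ in level between the libraries, for example Serpinb1a (log2 ratio 0.75) and C1qa (-1.03). Cluster sizes are therefore given here over both libraries and are not compared as a result. Cluster 0 (1362 cells, 38.9%) was led by Zyg11b, S1pr1, Ssh2 and Cmah, and had Klf2 at 1068 CPM in WT and 1053 CPM in the other library. Cluster 1 (842 cells, 24.1%) was led by Serpinb1a, Arhgef18, Vpreb3, a chaperone of immature B cells, and Pik3ip1, an inhibitor of PI3 kinase, with log2 ratios to the other members of at most 0.78.

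Cluster 2 (482 cells, 13.8%) was led by Ahr, the aryl hydrocarbon receptor, Phgdh, which opens serine synthesis, Dusp4, a MAP kinase phosphatase, and Prxl2a. Its Npm1, a nucleolar protein, stood at 1354 CPM in WT and 1805 CPM in the other library against 637 and 847 CPM in cluster 0, and its Klf2 was at 589 and 449 CPM. Cluster 4 (203 cells, 5.80%) was led by Myc, Irf4, Egr3 and Mir155hg, genes that B cells switch on after antigen receptor or CD40 signals. Its Cd83, an activation marker, stood at 1149.5 and 939 CPM against 366 and 398 CPM in cluster 0. Cluster 6 (159 cells, 4.55%) was led by Esco2, Pclaf, H1fx and Rrm2, replication genes. Its Mki67 was at 516 and 533 CPM, and its Ighd at 222 and 200.1 CPM was the lowest of the 7 clusters in both libraries. In WT 27.1% of cluster 6 held both Xist and Y-linked UMIs.

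Clusters 3 and 5 were led by genes of other cell types. Cluster 3 (112 cells, 3.202%) was led by Gzma, a granzyme, Ctla2a, Ccl5 and Cd28, genes of cytotoxic and T cells, and its kappa light chain Igkc stood at 69427 CPM in WT and 135909 CPM in the other library, against 4721 and 5319 CPM in cluster 0. Cluster 5 (338 cells, 9.66%) was led by Lyz2, C1qa, C1qb and C1qc, genes of macrophages, with Lyz2 at 3641 and 5682 CPM and Cd79a at 872 and 894 CPM against 1980.5 and 2329 CPM in cluster 0. Over all members the summed markers of monocytes and macrophages were 1497 CPM in WT and 1439 CPM in the other library, and 154 and 92.5 CPM without clusters 3 and 5. Over all members none of these 10 markers was under 5 CPM in either library. Without clusters 3 and 5, C1qa was at 3.80 CPM and C1qc at 2.64 CPM in the library labelled Otud1-/-.

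**Figure D3:**
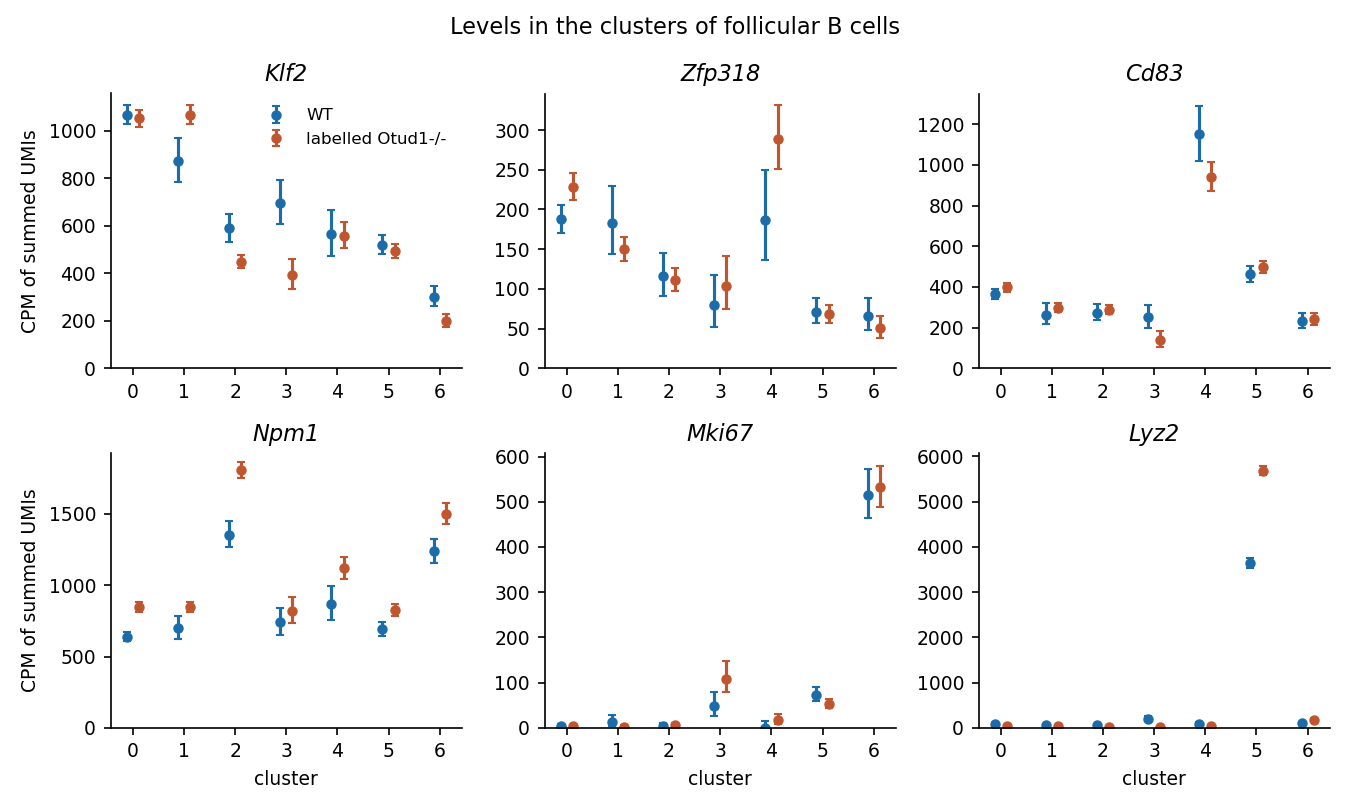
Levels of 6 genes (CPM of summed UMIs, y axes) in clusters 0 to 6 of the follicular B cells (x axes) in each library, with exact Poisson 95% intervals for counting error. Klf2 is highest in clusters 0 and 1, Cd83 in cluster 4, Npm1 in cluster 2, Mki67 in cluster 6 and Lyz2 in cluster 5.

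Most follicular B cells carried kappa light chains and little class-switched heavy chain. Cells whose lambda UMIs (Iglc1, Iglc2 and Iglc3) outnumbered those of Igkc were 5.59% (4.40 to 6.99) in WT and 6.60% (5.604 to 7.72) in the other library. T cells, which make no antibody, gave 5.42% and 4.67% by the same count, but with a median of 1 lambda UMI in such cells against 10.5 in follicular B cells. Counting only cells with at least 90% of their light chain UMIs from 1 chain, they were 3.74% of 668 and 4.63% of 1167 cells. Ighm was found in 94.3% and 96.6% of members, against 39.4% and 29.2% of T cells, and stood at 1417 and 1414 CPM in members. Cells whose switched heavy chain UMIs outnumbered those of Ighm and Ighd were 7.54% (6.15 to 9.12) in WT and 3.66% (2.92 to 4.53) in the other library, and 5.57% and 2.89% without clusters 3 and 5. The same count gave 53.3% and 43.1% in other B cells, and 17.9% and 19.1% in T cells, which had median depths of 3522.5 and 4800 UMIs. T cells make no Ighm or Ighd of their own, so their share is no floor for B cells, and the part of free RNA in the members' share was not tested.

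A few cells carried most of the switched transcripts. Of the 3409 Ighg1 UMIs in follicular B cells of the library labelled Otud1-/-, 98.7% came from 1 cell, and WT held 7 such UMIs. The highest cell held 53.8% of Igha UMIs in WT and 59.4% in the other library, and 64.7% and 84.3% of Iglc1 UMIs. Without the 5 highest cells Igha was at 266 CPM in WT, against 1129.5 CPM with them, and at 97.0 CPM in the other library, against 442 CPM. Without those cells Ighg1 was at 0 CPM in WT and 2.26 CPM in the other library, and Iglc1 at 129 and 158 CPM, while Igha was still lower in the library labelled Otud1-/-. Its log2 ratio was 0.21, on the other side of 0, in clusters 0, 1, 2 and 4 alone.

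Between the libraries the follicular B cells were close in most genes. Of 2699 genes compared (a mean of at least 50 CPM and at least 100 UMIs in the higher library), 12 (0.445%) were at least 1.5-fold higher in the library labelled Otud1-/- and 48 (1.78%) at least 1.5-fold lower, together 2.22%, and 2268 (84.0%) were within 1.25-fold. The median log2 ratio was -0.02. Cluster 0 was the largest in both libraries, but the mix of clusters differed. Cluster 0 held 49.1% of members in WT and 33.0% in the other library, and cluster 1 held 9.95% and 32.3%. The part of this mix in the ratios was not tested beyond the settings given. With TMM factors the counts were 28 higher and 33 lower, and with median-of-ratios factors 25 and 35, so the balance of the directions depends on the scaling. Without clusters 3 and 5, 14 of 2616 genes (0.535%) were higher and 42 (1.61%) lower, together 2.14%, of which 4 and 34 were among the first counts. Among members that held Y-linked but no Xist UMIs 47 were higher and 43 lower, of which 7 and 25 were among the first counts. Follicular genes outside the rule lay close together, for instance Zfp318 at 135 and 147 CPM, Ccr7 at 450.0 and 439 CPM and Klf2 at 758 and 726 CPM.

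The named higher genes differed little in size. Ebna1bp2, a ribosome assembly factor, stood at 45.1 CPM (39.9 to 50.9) in WT and 70.9 CPM (66.2 to 75.8) in the library labelled Otud1-/-, a log2 ratio of 0.65 (0.45 to 0.86). Hist1h2ap (0.63), Rnh1 (0.62), an inhibitor of ribonucleases, Mrpl12 (0.59), a mitochondrial ribosomal protein, and Strap (0.59), which binds RNA and the TGF-beta receptor complex, were also past 1.5-fold. The other 7 past 1.5-fold fell outside the rule for named genes and are given because the count is small: Ighg1, Ighg2b and Iglc1, the Y-linked Eif2s3y, and Slpi, Wfdc17 and Serpinb1a, which were under 10% of their CPM in another cell population. Without clusters 3 and 5, Hist1h2ap was at 0.49, Rnh1 at 0.32 and Mrpl12 at 0.55, all under 1.5-fold, and Strap was at 0.71. C1qbp (0.57), a mitochondrial matrix protein, Bmyc (0.55), Erh (0.55), Emp3 (0.55), Mrpl43 (0.55), Coa3 (0.54), an assembly factor of cytochrome oxidase, and Mif4gd (0.52), which binds histone messenger RNA, were the next and did not reach 1.5-fold.

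The lowest named genes included transcripts of other cells. Hbb-bs, Hba-a1, Hba-a2 and Hbb-bt, the globins of red cells, lay between -4.46 and -6.90 on the log2 scale, and 1 WT cell held between 83.3% and 87.0% of each. Hbb-bs was at 1210 CPM in WT and 12.2 CPM in the other library, and at 11.4 CPM in WT without its 5 highest cells. C1qc (-1.23), C1qa (-1.03) and C1qb (-0.90), complement genes of macrophages, stood for C1qa at 174 and 85.0 CPM, and at 14.0 and 3.80 CPM without clusters 3 and 5. Selenop (-0.95), a selenium carrier that macrophages also make, was at -0.51 without those clusters. AY036118 (-1.02), whose reads can come from ribosomal RNA, was at 1123 and 552 CPM, and the mitochondrial gene mt-Atp8 (-0.91) at 168 and 89.6 CPM. The median share of mitochondrial UMIs in follicular B cells was 4.92% in WT and 5.29% in the other library.

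Fos and Klf4 were the other named lower genes. Fos, a component of the AP-1 transcription factor that is induced within minutes of a stimulus or of tissue handling, stood at 251 CPM (239 to 265) in WT and 121 CPM (115 to 127) in the library labelled Otud1-/-, a log2 ratio of -1.05 (-1.16 to -0.95). Without clusters 3 and 5 it stood at 180.1 and 51.1 CPM, a ratio of -1.81, and it was lower in clusters 0, 1 and 2 alike, at 232 against 84.1, 155 against 41.7 and 86.1 against 18.9 CPM. With at most 5% mitochondrial UMIs it was at -0.58, just under 1.5-fold. Klf4, a quiescence and stress factor, stood at 108 and 59.3 CPM, a ratio of -0.86, and at -0.85 without clusters 3 and 5.

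**Figure D4:**
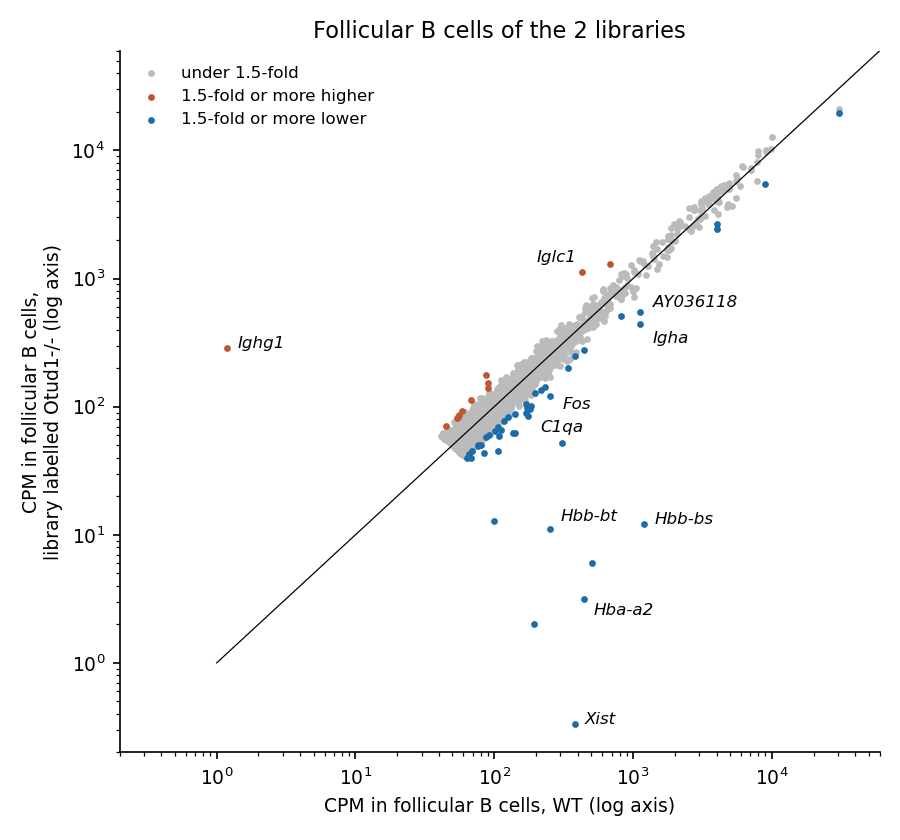
CPM of each compared gene in follicular B cells of WT (x axis, log scale) and of the library labelled Otud1-/- (y axis, log scale), with the line of equality; coloured points are at least 1.5-fold apart. Most of the 2699 genes lie along the line, while the globins and Xist lie far below it and Ighg1 far above.

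The gene lists had a median close to that over all genes, but list members were lower more often than all genes. At a minimum of 20 CPM, 28 of 5315 genes (0.527%) were higher and 107 (2.01%) lower, together 2.54%, with a median log2 ratio of -0.03. Of 527 list members measured, 5 were higher and 33 lower, with a median of -0.01. The 5 higher were Otud1, S1pr4, a sphingosine 1-phosphate receptor (31.7 and 50.3 CPM, 0.66), and Ighg1, Ighg2b and Iglc1, which rest on few cells. Among members that held Y-linked but no Xist UMIs 26 were higher and 19 lower, and without clusters 3 and 5 the counts were 6 and 21.

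The lists of B cell receptor signalling and MHC class II presentation had no member past 1.5-fold. Only 2.54% of all genes were past it, so counts of 0 in lists this short do not set them apart. In B cell receptor signalling 0 of 30 were higher or lower, with a median of -0.16 and for example Syk, the first kinase of the cascade, at 398 and 354 CPM and Lyn at 360 and 266 CPM (-0.44). In MHC class II presentation 0 of 14 were past the fold, with a median of 0.11 and Cd74, the invariant chain, at 10034 and 12743 CPM (0.35). B lineage transcription factors had 0 of 21, among them Pax5 (-0.30) and Ebf1 (-0.03), and subunits and inhibitors of NF-kB 0 of 16, among them Nfkbia (0.54) and Tnfaip3 (-0.57). Follicular markers outside the rule had 0 of 14, with a median of -0.10, and germinal centre genes 0 of 2 measured. Of these medians, each lay within 0.2 of that over all genes.

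The immediate early and activation list had 0 of 30 members higher and 5 lower, with a median of -0.21. The 5 were Fos, Fosb (-1.11), Jun (-0.80), Klf4 and the chemokine gene Ccl4 (-0.70, and -0.31 without clusters 3 and 5), and Fosb and Ccl4 were at under 10% of their level in another cell population of the same library. Junb (-0.00), Jund (0.00) and Nr4a1 (-0.17), other genes of the same kind, lay near 0, and Ier2 was at 0.35. Among homing genes 1 of 24 was higher and 2 lower. The lower ones were Rgs1, a regulator that dampens chemokine receptor signals (183 and 101 CPM, -0.85, and -1.001 without clusters 3 and 5), and Gpr183, an oxysterol receptor that guides activated B cells (75.8 and 49.7 CPM, -0.60, and -0.49, under 1.5-fold, without clusters 3 and 5). The median of the homing list was -0.22.

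Cytosolic ribosomal proteins had 0 of 82 higher and 3 lower, with a median of 0.19. Rps29 stood at 8872 and 5450 CPM (-0.70), Rps28 at 3998 and 2452 CPM (-0.70) and Rpl38 at 4024 and 2650 CPM (-0.60), opposite in sign to the median of their list. Nuclear genes of oxidative phosphorylation had 0 of 73 higher and 1 lower, with a median of 0.10. The type I interferon list had 0 of 23 higher and 1 lower, Eif2ak2 (-0.60), a kinase that senses double-stranded RNA. Markers of some other cell types differed more than the pathways. Of monocyte and macrophage markers 5 of 7 were lower. T cell markers summed to 179 CPM in WT and 85.7 CPM in the other library, with 96.8 and 52.7 CPM without clusters 3 and 5. Neutrophil and plasma cell markers each had 0 of 5 past 1.5-fold. Without clusters 3 and 5, 3 neutrophil markers were higher, and this list, with 2 genes limited by the rule, summed to 160 and 323 CPM. Their part in the differences named above was not tested.

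**Figure D5:**
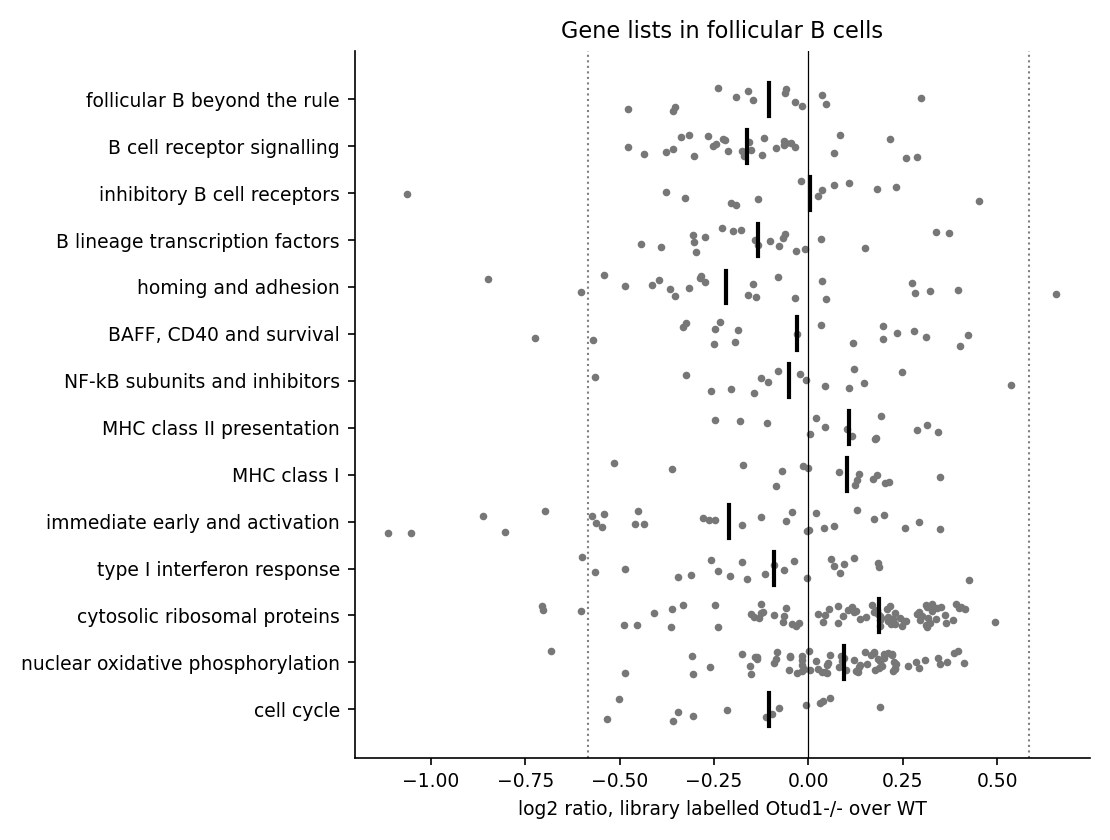
Log2 ratio of CPM, library labelled Otud1-/- to WT (x axis), for the members of 14 gene lists at 20 CPM or more in follicular B cells; each point is a gene, black bars are list medians and dotted lines are 1.5-fold. Points past the dotted lines are few, and the immediate early list has 5 on the lower side.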

How the data were processed

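Single-cell 10x 3′ libraries (v3.1 chemistry) were made from gingiva infiltrating cells, 1 library for each of 2 genotypes. The deposited values are raw UMI counts per gene and barcode, written by Cell Ranger 6.0.1 per the file headers, while the submitters' processing notes name Cell Ranger 5.0.0, Seurat 3.2.3 and mm10. Further filters by the authors: not given in the sources used here.

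From the counts of 32285 genes, the members were chosen by the rule in the report and their UMIs summed per library (Python 3.11.15, numpy 2.4.6, scipy 1.17.1, pandas 2.3.3). Levels are counts scaled to 1000000 summed UMIs (CPM), with exact Poisson intervals, and log2 ratios add a prior of 0.5 CPM, with exact conditional binomial intervals. All intervals are at 95% and cover counting error only, since UMIs of 1 library are no replicates. A gene counted as higher or lower was past 1.5-fold. Genes named are the 12 highest and 12 lowest log2 ratios between libraries, and between follicular and other B cells the 12 each way by the ratio nearer to 0 of both libraries. Immunoglobulin, T cell receptor, sex-linked and predicted genes, Otud1, and genes under 10% of their CPM in another population of at least 50 cells were left out of this choice. From each list, members with large ratios, high levels or a textbook role are described, and up to 4 leading genes of each cluster. Some genes that this choice names are not reported here. The genes of the rule were left out of the comparison with other B cells. Clusters used scanpy 1.11.5 (2000 variable genes, 20 components, 15 neighbours, Leiden resolution 0.5). Doublets were removed only as an alternative: Scrublet's automatic threshold called 0 barcodes in both libraries, so the highest scores at 0.8% per 1000 barcodes were used, 10.6% of WT and 6.49% of the other library's kept barcodes. TMM factors came from edgeR 4.0.16 and size factors from DESeq2 1.42.0 (R 4.3.3), as alternatives. The scripts were tested on simulated data. The members and the 40 gene lists were chosen with earlier results of these data known.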

Additional observations from a re-analysis of the deposited data

Results flagged for a closer look

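In 10 of 2494 genes (0.401%) the follicular B cells were past 1.5-fold on opposite sides of the other B cells in the 2 libraries. The difference between the libraries was not tested. Il1b, an inflammatory cytokine of myeloid cells, stood at 344 CPM in follicular and 586 CPM in other B cells of WT (log2 ratio -0.77), and at 438 against 166 CPM in the library labelled Otud1-/- (1.40). Ccl5, a chemokine of T and NK cells, stood at 156 against 363 CPM (-1.21) and at 149 against 39.8 CPM (1.89). Lower in WT and higher in the other library were also Ccl4 (-0.68 and 0.99), AW112010 (-0.88 and 0.65), Cdkn1a (-0.69 and 0.97), Fcer1g (-0.64 and 1.10), Ifitm2 (-0.62 and 0.97), Ifitm3 (-0.68 and 1.43) and Lgals3 (-0.72 and 1.35). Ighg1 (-6.76 and 4.58) rests on 7 UMIs in WT follicular B cells and, in the other library, on 1 cell with 98.7% of its UMIs. Markers of monocytes and macrophages moved with these genes: they summed to 1497 CPM in follicular and 1978 CPM in other B cells of WT, and to 1439 and 682 CPM in the library labelled Otud1-/-. Over both libraries, Ccl5 stood at 2135 CPM in cluster 3 against 70.4 CPM in the other members, and AW112010 at 632 against 52.6 CPM. Ifitm3 stood at 1427 CPM in cluster 5 against 29.8 CPM in the other members. The ratios of these genes without clusters 3 and 5 are not given here. The part of those clusters and of the monocyte and macrophage markers in these values was not tested.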

How the results depend on the processing

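No paired analysis was possible because each genotype has 1 library. For the same reason no replicate could be left out. The difference in share was positive under every setting run. In points of kept barcodes, from 21.8, it was 3.29 after thinning to 1000 UMIs, 14.3 with at most 5% mitochondrial UMIs, 23.9 and 17.6 with at least 1 or 3 UMIs of Ighd and Fcer2a, and 16.1 in cells holding Y-linked but no Xist UMIs. Among B cells, from 29.7, the same settings gave 8.72, 32.9, 25.1, 26.4 and 20.3, and 24.4 came from at least 6 UMIs of the B cell genes and 32.4 without clusters 3 and 5. Settings on clusters were chosen after seeing the data.

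Genes higher and lower between the libraries, from 12 and 48, were 28 and 33 with TMM, 25 and 35 with median of ratios, 28 and 107 at 20 CPM, 6 and 29 at 100 CPM, 1058 and 1616 with no minimum, 47 and 43 in cells of that kind, 43 and 49 with at most 5% mitochondrial UMIs, 28 and 47 with at least 3 UMIs of Ighd and Fcer2a, and 22 and 49 in clusters 0, 1, 2 and 4. List members, from 5 and 33, were 8 and 29 with TMM, 3 and 21 at 50 CPM, 26 and 19 in cells of that kind, and 6 and 21 without clusters 3 and 5. The genes higher and lower than in other B cells, from 175 and 178, were 26 and 29 without Jchain-rich other B cells and 16 and 40 within 2000 to 6000 UMIs. Lambda shares were 3.74% and 4.63% with 90% of 1 chain and 7.48% and 7.84% after thinning, and switched shares 5.57% and 2.89% without clusters 3 and 5. Leiden resolution 1 gave 15 clusters.

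The log2 ratio between libraries changed sign for Hba-a1 (0.065), Iigp1 (0.050) and Ighg2c (0.79) in cells of that kind, for Ighg2c without clusters 3 and 5 (1.97), for Ighg2c (2.11), Igha (0.21) and Ighg2b (-0.99) in clusters 0, 1, 2 and 4, and for Ighg2b (-0.46), Iglc1 (-0.32) and Jchain (-1.11) as a mean of per-cell CPM. Against other B cells, Hist1h2ap (0.10) and Hist1h1b (0.15) did so within 2000 to 6000 UMIs in the library labelled Otud1-/-. The cause was not tested. Of the other values of named genes, 385 between libraries and 221 against other B cells kept their direction and side of the threshold, 47 and 17 kept the direction under the threshold, and 38 between libraries went past it.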
